A study of Mus musculus with 8 samples.

Results

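The Notch receptors, their ligands and their target genes were examined in glomeruli of mice with and without CD151, a tetraspanin that partners laminin-binding integrins where podocyte foot processes meet the glomerular basement membrane. The genes comprised *Notch1*, *Notch2*, *Notch3*, *Notch4*, *Jag1*, *Jag2*, *Dll1*, *Dll4*, *Hes1* and *Hey1*. They were chosen by name: every probe whose gene symbol equalled one of these 10 was taken, which gave 12 of 25697 probes and 10 of 18120 gene symbols on the Illumina MouseRef-8 v1.1 BeadChip. Total RNA came from glomerular isolates of male FVB/N mice aged 3 weeks, 4 with a homozygous *Cd151* deletion (Cd151-/-) and 4 with intact *Cd151* (Cd151+/+), 1 mouse per array and 1 colour per array. The comparison addressed glomerular expression early in the disease that the deletion causes on this strain. The deletion was not restricted to 1 cell type, and the isolates, made by bead perfusion and collagenase digestion, mixed podocytes, endothelial and mesangial cells with some tubular material. In such bulk samples, fewer cells of a type and less RNA per cell cannot be told apart.

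Notch signalling passes between touching cells. A Delta-like or Jagged ligand on one cell binds a Notch receptor on its neighbour, ADAM proteases and then γ-secretase cut the receptor, and the freed intracellular domain joins the DNA-binding protein RBPJ in the nucleus to switch on targets such as the HES and HEY repressors. In the kidney, the pathway patterns nephrons and glomerular capillaries during development, Dll4 and Notch4 are typical of endothelium, and Notch3 of mural cells such as mesangial and smooth muscle cells.

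Lower signals in Cd151-/- glomeruli were found for the endothelial ligand gene *Dll4*, the target gene *Hes1* and the receptor gene *Notch2* at an unadjusted limma p below 0.05, and no member passed after adjustment over all probes tested. The 250 bases before the annotated start of *Dll4* and of *Notch2* are shown because both genes lay among those 3. They are RefSeq sequences on build GRCm38.p6, written 5′ to 3′ on the strand of the gene, which was plus for both, at chr2:119325534-119325783 and chr3:98013288-98013537. Capitals mark the only match to the N-box, a motif that HES repressors are known to bind, spelled CACNAG and searched on both strands.
Dll4: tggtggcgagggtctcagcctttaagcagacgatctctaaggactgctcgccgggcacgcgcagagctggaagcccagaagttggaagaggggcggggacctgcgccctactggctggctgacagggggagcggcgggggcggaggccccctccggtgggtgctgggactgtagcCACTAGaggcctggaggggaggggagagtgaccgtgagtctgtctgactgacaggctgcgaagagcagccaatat
Notch2: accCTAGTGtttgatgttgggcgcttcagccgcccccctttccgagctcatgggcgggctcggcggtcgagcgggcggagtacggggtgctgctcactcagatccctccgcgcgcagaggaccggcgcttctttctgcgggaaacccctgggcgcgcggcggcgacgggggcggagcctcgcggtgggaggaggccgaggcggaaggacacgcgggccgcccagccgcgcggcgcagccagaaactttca
The table of promoter sequences matched 8 of the 10 genes in 9 windows, since *Dll1* had 2 starts. *Hes1* and *Hey1* had no entry. An N-box match was present in 4 of the 9 windows (*Notch1*, *Notch2*, *Notch3* and *Dll4*), beside 36.7% of all 32851 windows of this length. The RBPJ core TGGGAA, on either strand, was present in 0 of the 9 and in 21.6% of all windows. These counts describe letters in a sequence and measured no binding.

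The probes for *Cd151* bore out the genotype labels. All 3 were detected on every Cd151+/+ array and on no Cd151-/- array, and the brightest (ILMN_2836710) was at least 523-fold lower in Cd151-/- mice (14.37 ± 0.24 against 4.57 ± 0.08 normalised log2 signal, SD, n = 4 each, limma adjusted p = 6.51e-10). A probe was called detected at a detection p-value of 0.05 or lower, and each array detected 11291 to 12359 probes. The array background, inferred from the detection p-values, split the arrays into 4 lower ones at 59.0 to 69.5 (Cd151+/+ mice 1 and 2, Cd151-/- mice 3 and 4) and 4 higher ones at 123 to 135 (the other mice). Both sets held 2 mice of each genotype, so genotype differences were also taken within each set. The labels do not say what the sets are. With 4 arrays per genotype, precision is set by their number.

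All levels below are normalised log2 signals, all differences are Cd151-/- minus Cd151+/+ on that scale. The test was limma across the 14967 probes detected on at least 1 array, with Benjamini-Hochberg adjustment. This took in 11 of the 12 probes, for 9 of the 10 genes. *Jag1* was the gene left out. After adjustment 0 of the 9 genes passed at 0.05, where 0.0334% of all probes did. At an unadjusted p below 0.05, 3 of the 9 genes were lower in Cd151-/- glomeruli and 0 were higher, beside 2.61% of all probes lower and 1.69% higher. The fitted difference was negative for 7 of the 9 genes and positive for 2, with a median of -0.21, where the median over all probes was -0.01. The lowest Cd151+/+ mouse lay above the highest Cd151-/- mouse for 1 of the 9 genes, *Dll4*, which was the case for 1.46% of all probes, while 0.855% had the opposite order and no member did.

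**Figure D1:**
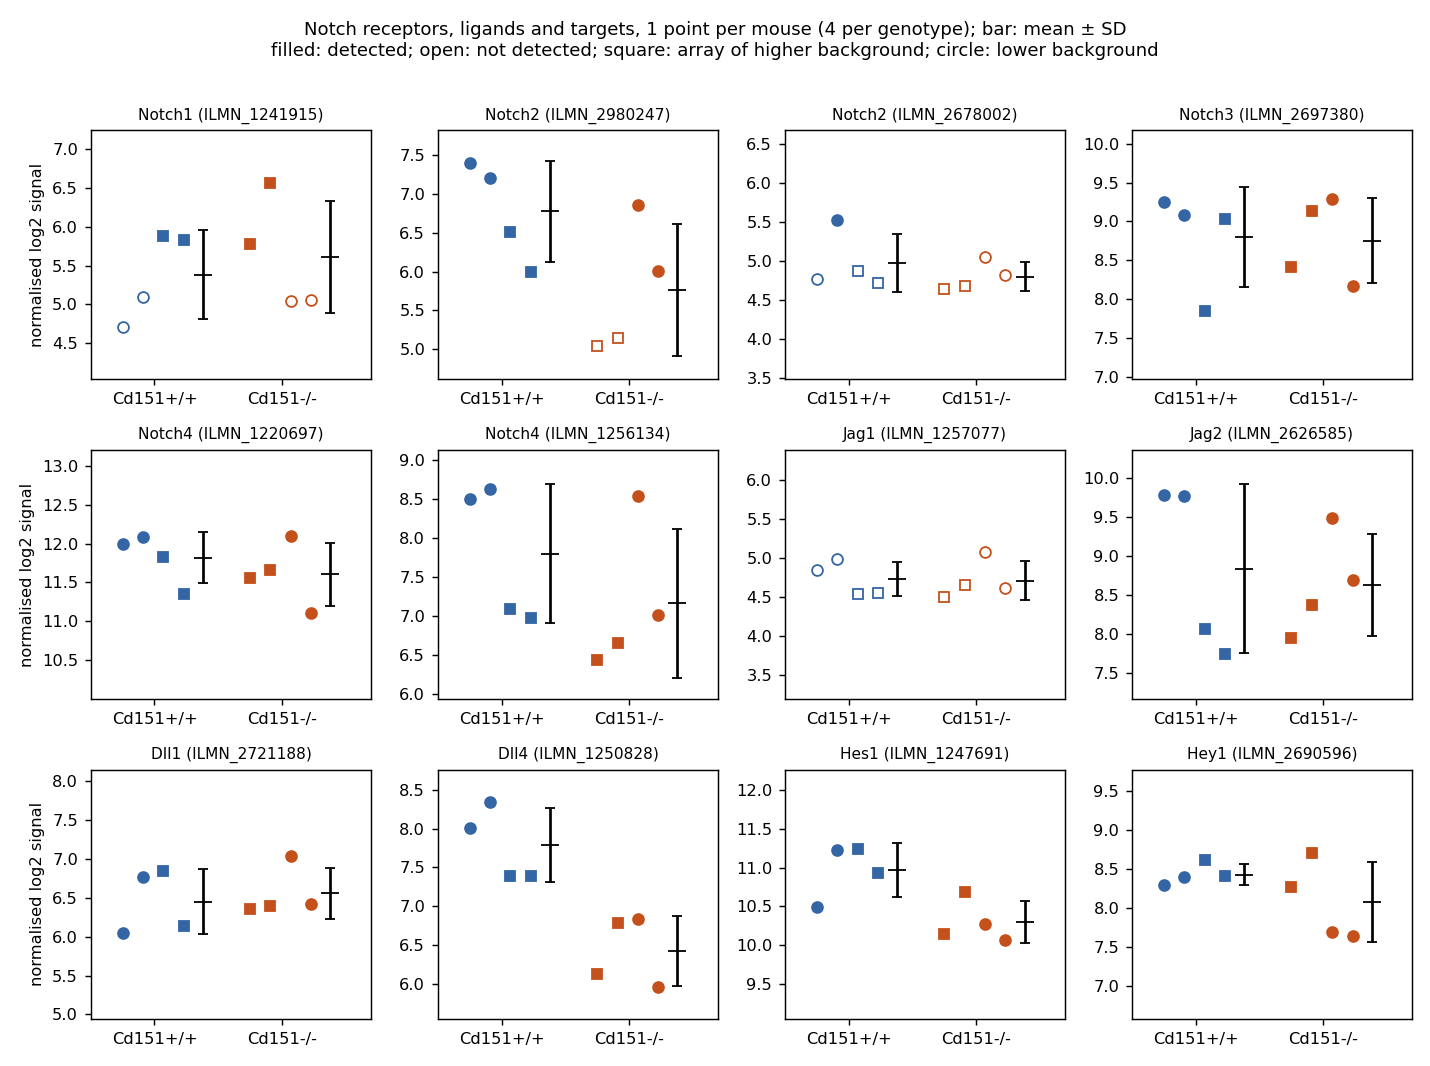
Normalised log2 signal of each of the 12 probes, 1 point per mouse, 4 Cd151+/+ and 4 Cd151-/- mice, with bars for the mean ± SD. Panels have separate vertical axes of equal span. Filled points were detected, and squares mark arrays of higher background. The *Dll4* points of the genotypes do not overlap, and the *Jag1* points are all open.

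Among the ligands, *Dll4* showed the largest difference of the 9 tested genes. Delta-like 4 is the main Notch ligand of arterial and sprouting endothelium, where it restrains tip cell formation. Its probe (ILMN_1250828) read 8.01, 8.35, 7.39 and 7.39 in Cd151+/+ mice 1 to 4 and 6.13, 6.79, 6.84 and 5.96 in Cd151-/- mice 1 to 4. Every array detected it, every Cd151-/- mouse was below every Cd151+/+ mouse, and 0.55 log2 units separated the groups. The means were 7.79 ± 0.48 and 6.43 ± 0.45 (SD, n = 4 each), a 2.56-fold lower signal in Cd151-/- glomeruli. The log2 difference was -1.35 (SE 0.30, 95% confidence interval -2.02 to -0.69), with a limma p of 0.000944 and an adjusted p of 0.744. A two-sided exact permutation test gave p = 0.0286, the smallest that 4 mice against 4 allow. Within the lower-background arrays the difference was -1.78 and within the higher-background arrays -0.93, so the direction was the same in both.

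The glomerular endothelial markers were mostly lower in Cd151-/- mice as well, by less than *Dll4*. Of 8 such genes (*Pecam1*, *Cdh5*, *Kdr*, *Flt1*, *Ehd3*, *Tie1*, *Emcn* and *Eng*), 7 were lower and 1 higher, 0 at an unadjusted limma p below 0.05, with a median of -0.32. *Kdr* was detected on 2 Cd151+/+ arrays and on no Cd151-/- array, so it entered only through the group in which it was higher, and the other 7 were detected on all arrays. Their summed linear signal ranged over 34090 to 45725 in Cd151+/+ mice and over 23132 to 44997 in Cd151-/- mice. *Dll4* was therefore also read against the mean of these 8 markers, *Kdr* included, on each array, a scale chosen after the data were seen. On that relative log2 scale it stood at -3.03, -2.89, -3.29 and -3.22 in Cd151+/+ mice 1 to 4 and at -4.10, -3.88, -4.29 and -4.34 in Cd151-/- mice 1 to 4. The groups again did not overlap, at -3.11 ± 0.18 and -4.15 ± 0.21 (SD, n = 4 each), a difference of -1.04 (exact permutation p = 0.0286). No other of the 9 genes had separate groups on this scale, where 0.408% of all probes had a Cd151-/- group wholly below the Cd151+/+ group. Of 7 arterial endothelial genes (*Efnb2*, *Gja4*, *Gja5*, *Sox17*, *Sema3g*, *Unc5b* and *Bmx*), 6 were lower and 1 higher with a median of -0.27, none at an unadjusted limma p below 0.05. *Efnb2*, among the 6, was detected on 1 Cd151+/+ array alone, and so entered only through the group in which it was higher.

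The other ligand genes gave no difference beyond the spread between mice. *Dll1* encodes Delta-like 1, a ligand used in somite and nephron patterning. Its probe (ILMN_2721188) read 6.05, 6.77, 6.84 and 6.13 in Cd151+/+ mice 1 to 4 and 6.36, 6.40, 7.04 and 6.43 in Cd151-/- mice 1 to 4. The groups overlapped, with a log2 difference of 0.11 (95% confidence interval -0.48 to 0.69, limma adjusted p = 0.955, exact permutation p = 0.743). The interval leaves room for a difference of either sign. *Jag2* encodes Jagged 2, and its probe (ILMN_2626585) read 9.78, 9.77, 8.06 and 7.73 in Cd151+/+ mice 1 to 4 and 7.95, 8.37, 9.49 and 8.69 in Cd151-/- mice 1 to 4. Its highest values lay on the lower-background arrays of both genotypes, which all exceeded the higher-background arrays, by 1.40 log2 units on average. The genotype difference was -0.21 (95% confidence interval -1.32 to 0.90, limma adjusted p = 0.955, exact permutation p = 0.80), and it was -0.68 within the lower-background and 0.26 within the higher-background arrays. *Jag1*, whose product Jagged 1 is the ligand mutated in Alagille syndrome, was not detected on any array. Its probe (ILMN_1257077) gave 4.73 ± 0.22 and 4.71 ± 0.25 log2 (means read from the lowest part of the scale, SD, n = 4 each), so these arrays hold no measured *Jag1* level to compare.

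**Figure D2:**
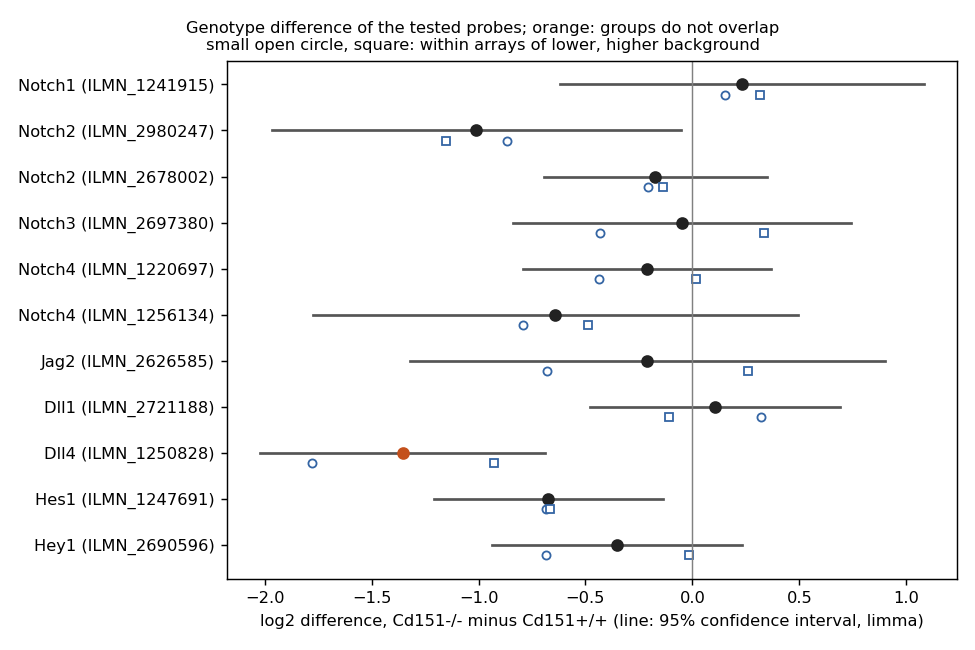
Log2 difference, Cd151-/- minus Cd151+/+, of the 11 tested probes (large points) with the 95% confidence interval from limma (lines). Small open circles and squares are the differences within the arrays of lower and higher background. The intervals of *Dll4*, *Hes1* and the brighter *Notch2* probe lie below 0.

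Of the receptors, *Notch2*, which is needed for proximal nephron formation and for podocyte development, was lower in Cd151-/- glomeruli at an unadjusted p but with overlapping groups. The brighter of its 2 probes (ILMN_2980247) read 7.39, 7.21, 6.50 and 5.99 in Cd151+/+ mice 1 to 4 and 5.04, 5.15, 6.86 and 6.01 in Cd151-/- mice 1 to 4. Cd151-/- mice 1 and 2 were not detected and carry the lowest values, while Cd151-/- mice 3 and 4 lay within the Cd151+/+ range. The means were 6.77 ± 0.65 and 5.76 ± 0.85 (SD, n = 4 each). The log2 difference was -1.01 (95% confidence interval -1.97 to -0.05, limma p = 0.0402, adjusted p = 0.918), and the exact permutation p was 0.143. It was -0.87 within the lower-background and -1.15 within the higher-background arrays. The call depended on single mice, since the limma p rose above 0.05 when Cd151+/+ mouse 1 (0.106) or 2 (0.0960) was left out. The same held when Cd151-/- mouse 1 (0.117) or 2 (0.109) was left out. The dimmer probe (ILMN_2678002) was detected on Cd151+/+ mouse 2 alone, so it entered the test through 1 array of the group in which it was higher, and its difference was -0.17 (limma adjusted p = 0.920, exact permutation p = 0.543).

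*Notch4*, the endothelial receptor gene, was detected on every array by both of its probes. The brighter one (ILMN_1220697) read 11.99, 12.09, 11.83 and 11.35 in Cd151+/+ mice 1 to 4 and 11.55, 11.66, 12.09 and 11.11 in Cd151-/- mice 1 to 4. The genotypes overlapped almost fully, with a log2 difference of -0.21 (95% confidence interval -0.79 to 0.37, limma adjusted p = 0.918, exact permutation p = 0.486). Its dimmer probe (ILMN_1256134) spread more widely, between 6.97 and 8.63 in Cd151+/+ mice and between 6.43 and 8.54 in those without *Cd151*, with a difference of -0.64 (95% confidence interval -1.78 to 0.50, limma adjusted p = 0.918, exact permutation p = 0.257). *Notch4* thus gave no separation of the genotypes in the same isolates in which *Dll4* did, although whether the difference of *Dll4* exceeds that of *Notch4* was not tested.

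*Notch3*, the mural cell receptor gene, had the smallest difference of the tested genes. Its probe (ILMN_2697380) read 9.25, 9.08, 7.85 and 9.03 in Cd151+/+ mice 1 to 4 and 8.42, 9.13, 9.29 and 8.18 in Cd151-/- mice 1 to 4. The log2 difference was -0.05 (95% confidence interval -0.84 to 0.74, limma adjusted p = 0.988, exact permutation p = 0.971). *Notch1*, the receptor gene best known from haematopoiesis and arterial fate, was detected only on the 4 arrays of higher background. Its probe (ILMN_1241915) read 4.71, 5.09, 5.89 and 5.83 in Cd151+/+ mice 1 to 4 and 5.78, 6.57, 5.04 and 5.06 in Cd151-/- mice 1 to 4. The 4 higher-background arrays all exceeded the 4 lower ones, by 1.04 log2 units on average, whichever the genotype. The genotype difference was 0.23 (95% confidence interval -0.62 to 1.08, limma adjusted p = 0.927, exact permutation p = 0.714). Separate background sets were seen for 2 of the 9 genes, *Notch1* and *Jag2*, and for 25.2% of all probes tested.

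Of the target genes, *Hes1* was lower in Cd151-/- glomeruli at an unadjusted p. HES1 is a basic helix-loop-helix repressor and the most widely used direct target of the pathway, though other signals also induce it. Its probe (ILMN_1247691) read 10.49, 11.23, 11.24 and 10.93 in Cd151+/+ mice 1 to 4 and 10.15, 10.68, 10.28 and 10.07 in Cd151-/- mice 1 to 4. Only Cd151-/- mouse 2 lay above a Cd151+/+ mouse, mouse 1. The means were 10.97 ± 0.35 and 10.30 ± 0.27 (SD, n = 4 each), a 1.6-fold lower signal. The log2 difference was -0.67 (SE 0.24, 95% confidence interval -1.21 to -0.14, limma p = 0.0183, adjusted p = 0.918), and the exact permutation p was 0.0571. It was -0.68 within the lower-background and -0.66 within the higher-background arrays. The limma p was 0.0588 without Cd151+/+ mouse 2 and 0.0525 without Cd151+/+ mouse 3. Relative to the 8 glomerular endothelial markers the difference was -0.36 (exact permutation p = 0.286), and the *Hes1* groups overlapped on that scale.

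*Hey1*, a HES-related repressor gene of endothelial and other cells, overlapped between genotypes. Its probe (ILMN_2690596) read 8.29, 8.40, 8.61 and 8.40 in Cd151+/+ mice 1 to 4 and 8.27, 8.71, 7.69 and 7.63 in Cd151-/- mice 1 to 4. Cd151-/- mice 3 and 4 were low, and both belong to the lower-background arrays. The log2 difference was -0.35 (95% confidence interval -0.94 to 0.23, limma adjusted p = 0.918, exact permutation p = 0.257), with -0.68 within the lower-background and -0.02 within the higher-background arrays.

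**Figure D3:**
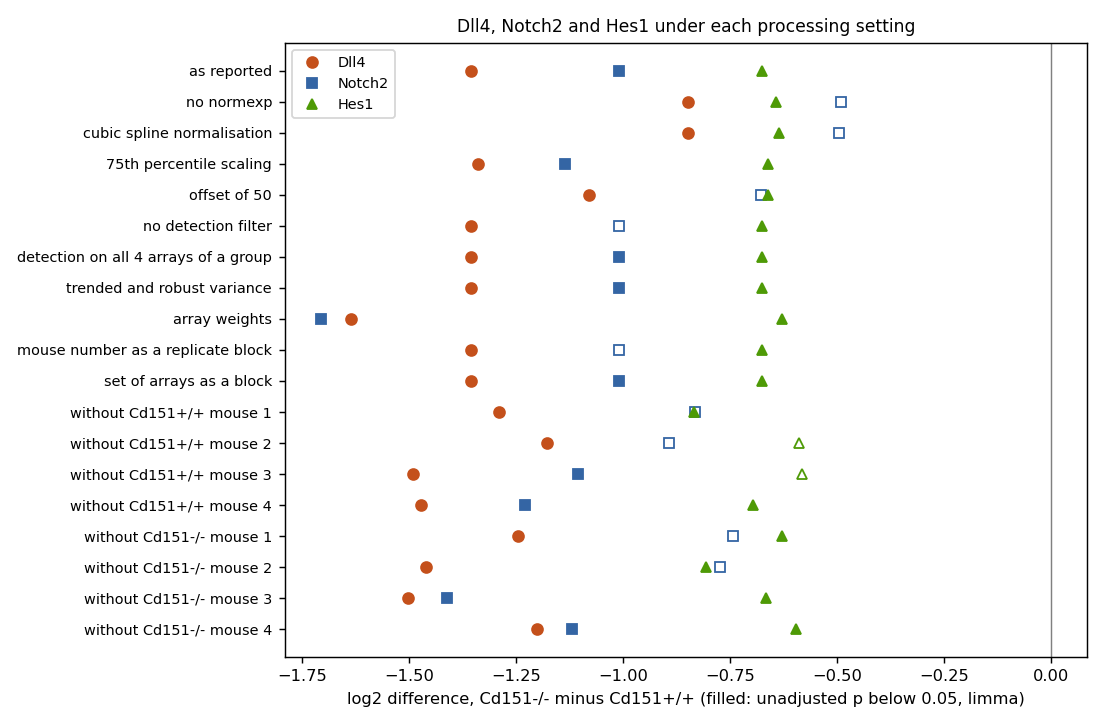
Log2 difference, Cd151-/- minus Cd151+/+, of *Dll4*, *Hes1* and the brighter *Notch2* probe as reported and under 18 alternative settings, with filled points where the limma p was below 0.05 before adjustment. All points lie below 0. *Dll4* is filled in every row, *Hes1* in all but those without Cd151+/+ mouse 2 or 3, and *Notch2* in 9 of the 18 alternatives.

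Markers of other cell types and of stress are given beside these results, and their part in the *Dll4*, *Notch2* and *Hes1* values was not tested. All 7 tested proximal tubule genes were higher in Cd151-/- mice, with a median of 0.56, and 1 of them (*Kap*, 1.38) had an unadjusted limma p below 0.05. Within the higher-background arrays *Slc5a2* (-0.34) and *Fbp1* (-0.03) were lower, and the other tested ones were higher within both sets. Of the 7, *Lrp2* was detected on 2 Cd151-/- arrays and on no Cd151+/+ array, and entered only through the group in which it was higher. The summed proximal tubule signal was 15764 to 44290 in Cd151+/+ and 28957 to 53232 in Cd151-/- mice. The podocyte genes *Wt1*, *Podxl*, *Ptpro* and *Cdkn1c* were detected on all 8 arrays, none with an unadjusted p below 0.05. Of the 6 mesangial and smooth muscle genes, 4 were lower and 2 higher, including *Pdgfrb* at -0.74 and *Acta2* at 0.71, each at an unadjusted p below 0.05. The leukocyte-defining genes *Ptprc*, *Emr1* and *Itgam* were not detected on any array. All 3 tested erythroid genes were lower with a median of -0.69, 2 of them at an unadjusted p below 0.05, and of 4 distal nephron genes 3 were lower with a median of -0.33. The 2 tested parietal epithelial genes had 1 difference of each sign. All 8 tested immediate early genes, which respond within minutes to stress or growth signals, were lower, with a median of -0.98 and 3 of them (*Jun*, *Junb* and *Zfp36*) at an unadjusted p below 0.05. Within the higher-background arrays *Fos* (0.61), *Egr1* (0.12) and *Dusp1* (0.02) were higher in Cd151-/- mice. The other tested immediate early genes were lower within both sets. The mean immediate early level was 11.32, 11.06, 11.26 and 11.88 in Cd151+/+ mice 1 to 4 and 10.80, 11.94, 10.08 and 9.12 in Cd151-/- mice 1 to 4. Cd151-/- mouse 2 had the highest immediate early level of its group, the highest *Hes1* level of its group, and the second highest *Dll4* level. Among Cd151+/+ mice, mouse 1 had the lowest *Hes1* level (10.49) but the second highest immediate early level (11.32).

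**Figure D4:**
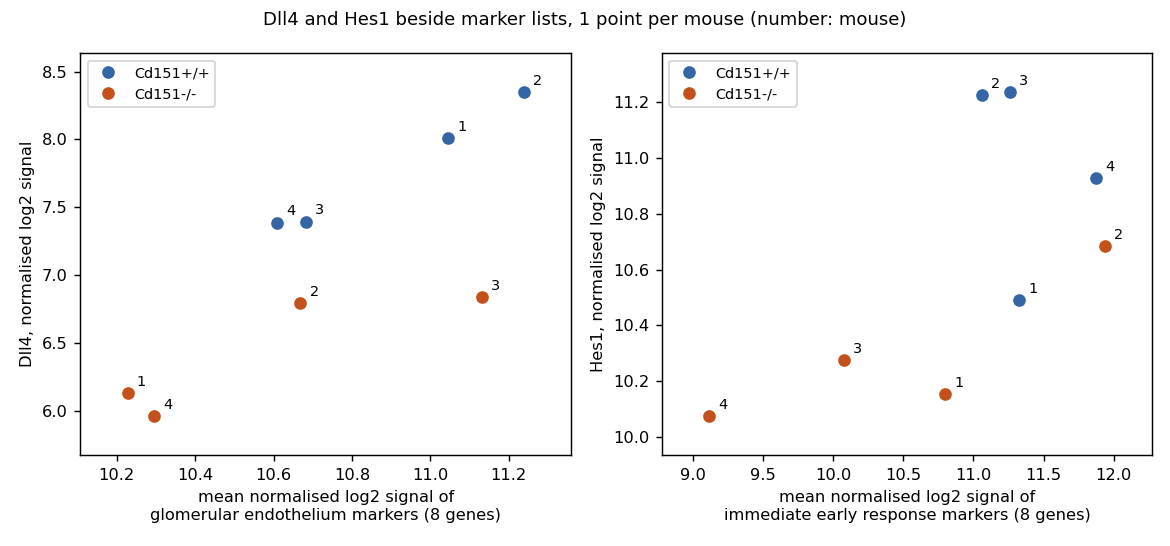
Normalised log2 signal of *Dll4* against the mean normalised log2 signal of the 8 glomerular endothelial markers (left), and of *Hes1* against that of the 8 immediate early genes (right), 1 numbered point per mouse and 4 mice per genotype. Near endothelial levels of 10.67 and 11.13, Cd151-/- mice 2 and 3 lie below the Cd151+/+ mice for *Dll4*. The 3 Cd151-/- mice with the lowest immediate early levels have the lowest *Hes1* levels. Among Cd151+/+ mice, mouse 1 has the lowest *Hes1* level (10.49) but the second highest immediate early level (11.32).

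Levels of the members were also compared across the 8 arrays, as a description only, since arrays share genotype, background set and cell mixture. *Dll4* and *Hes1* had a Pearson correlation of 0.75 over the 8 arrays and 0.26 once each genotype's mean was taken off. *Hes1* and *Hey1* had 0.71 and 0.61. The genes whose pattern was most like a member were sought among the 9495 probes detected on all 8 arrays, which included 7 members. For *Dll4* they were *Polm*, a DNA polymerase gene (0.98), and *6430527G18Rik* (0.98). For *Hes1* they were *Pitpnm1* (0.96) and the splicing kinase gene *Clk2* (0.95), and for *Hey1* the adenylate cyclase gene *Adcy1* (0.97) and *Ear2* (0.96). *Notch4* was closest to *Nde1* (0.99) and *Mapk11* (0.98), *Notch3* to *0910001A06Rik* and *Akap12* (0.96 each), *Jag2* to *Alox12b* (0.997) and *Daxx* (0.99), and *Dll1* to *AV006891* (0.92) and *Nrxn3* (0.91). These correlations carry no test.

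The rest of the pathway was read from a list of 66 other genes, of which 60 had a probe and 46 were tested, each by its brightest tested probe. The fitted difference was negative for 33 and positive for 13, with a median of -0.14 and a range of -0.88 to 0.33. No gene passed after adjustment (limma, smallest adjusted p = 0.918). At an unadjusted p below 0.05, 3 of the 46 genes were lower and 0 higher, beside 2.61% of all probes lower. The groups did not overlap for 1 of the 46 (*Dtx3*), which is near the 1.46% of all probes with a wholly lower Cd151-/- group. By role, negative differences were found for 4 of 5 other ligand genes, 2 of 4 genes of Notch glycosylation, 3 of 4 of ligand endocytosis, 4 of 7 of receptor proteolysis, 6 of 7 nuclear activators, 5 of 7 corepressors, 6 of 7 negative regulators and 3 of 5 other targets. Over all probes tested, 7618 of 14967 differences were negative, so several of these roles lie near the share of all probes. *Hes7* and *Heyl* entered the test only through Cd151-/- arrays, the group in which they were higher. No role had more than 1 gene at an unadjusted p below 0.05.

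*Dtx3*, a Deltex E3 ligase family gene, was the only one of the 3 whose groups did not overlap. It read 11.82, 11.98, 11.81 and 11.68 in Cd151+/+ mice 1 to 4 and 11.32, 11.14, 11.50 and 10.96 in Cd151-/- mice 1 to 4. The log2 difference was -0.59 (limma p = 0.0146, adjusted p = 0.918, exact permutation p = 0.0286). *Mfng* encodes Manic Fringe, a glycosyltransferase that modifies Notch and so alters its response to ligands. It read 6.28, 5.69, 6.21 and 6.26 in Cd151+/+ mice 1 to 4 and 5.10, 6.14, 4.82 and 4.87 in Cd151-/- mice 1 to 4. Of the Cd151-/- mice only mouse 2 was detected, and it lay within the Cd151+/+ range. Its difference was -0.88 (unadjusted limma p of 0.0160, adjusted p = 0.918), while a second *Mfng* probe (ILMN_2687661), detected on 1 Cd151+/+ and on no Cd151-/- array and so tested only through the group in which it was higher, gave -0.15. *Snw1*, listed on the array as *Skiip* and encoding a coactivator that joins the nuclear Notch complex, differed by -0.76 (unadjusted limma p of 0.0228, adjusted p = 0.918). It read 6.62, 6.82, 6.40 and 5.70 in Cd151+/+ mice and 5.25, 5.44, 6.06 and 5.75 in Cd151-/- mice, with overlap at Cd151+/+ mouse 4.

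Subunits of γ-secretase, the complex that makes the last cut of the receptor, gave small differences of both signs. The catalytic subunit gene *Psen2* differed by -0.30 and the nicastrin gene *Ncstn* by -0.29. *Aph1a* (array symbol *6530402N02Rik*) and *Psenen* (array symbol *1700023M09Rik*) differed by 0.28 and 0.13, and *Aph1c* was not detected on any array. None of these had an unadjusted limma p below 0.05. All 3 probes for *Rbpj* (array symbol *Rbpsuh*), the DNA-binding partner of every Notch receptor, were not detected on any array, so the nuclear step of the pathway was not measured at its centre. Further targets gave no call either. *Hey2* differed by -0.25, the feedback inhibitor gene *Nrarp* by -0.21, *Hes6* by -0.19 and *Heyl* by 0.33, the last detected on 0 Cd151+/+ and 2 Cd151-/- arrays. A dimmer *Hey2* probe (ILMN_2657210), detected on 4 Cd151+/+ arrays and 1 Cd151-/- array, gave -0.50. Dimmer *Hes6* probes gave -0.38 (ILMN_2608043) and -0.17 (ILMN_1214126).

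**Figure D5:**
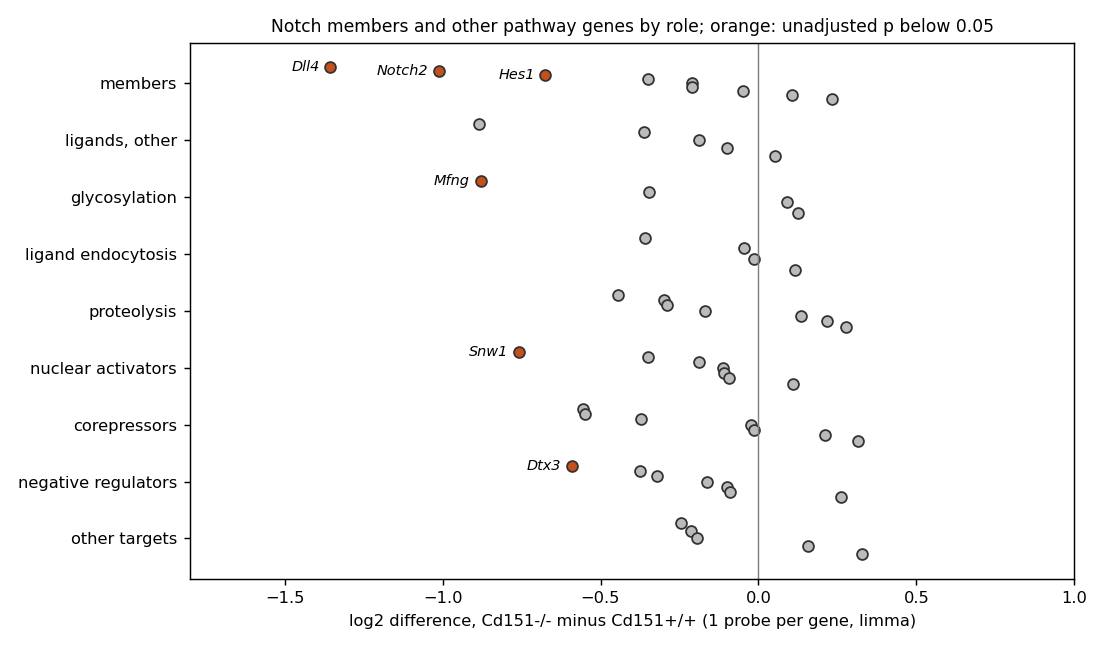
Log2 difference, Cd151-/- minus Cd151+/+, of the tested Notch members and of the 46 other tested pathway genes, grouped by role, 1 point per gene. Orange points have an unadjusted limma p below 0.05, namely *Dll4*, *Notch2* and *Hes1* among the members and *Mfng*, *Snw1* and *Dtx3* among the others, and all 6 lie below 0.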

How the data were processed

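Total RNA of glomerular isolates from 8 mice was labelled and hybridised to Illumina MouseRef-8 v1.1 BeadChips. The deposited table held, for every probe on each array, the authors' non-normalised signal intensity with its detection p-value, exported from GenomeStudio (version not given in the sources used here). Groups were taken from the genotype in the sample labels, and the labels number the arrays as biological replicates. From these intensities, log2 signals were computed in R 4.3.3 with limma 3.58.1 (neqc: normexp background correction inferred from the detection p-values, offset 16, then quantile normalisation). Every probe detected (detection p-value up to 0.05) on 1 or more arrays was fitted with lmFit and eBayes. The methods' cubic spline normalisation was re-implemented as an alternative. Low signals are compressed by the offset, and the background correction acts on them as well. The size of a difference of dim probes therefore depends on both. *Dll4* was at -1.35 as reported, -1.08 with an offset of 50 and -0.85 without normexp.

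The genes named were every member probe, other pathway genes at an unadjusted p of 0.05 or lower or with separate groups, the γ-secretase subunits, *Rbpj*, *Cd151*, and the 2 genes most like each member, apart from items that are not reported here. *Heyl*, *Hey2*, *Nrarp*, *Hes6* and the marker genes were named after their values were seen. The members and gene lists were chosen with earlier results of these data known. Of several probes of a gene, the brightest stood for it. Older array symbols were matched through RefSeq gene synonyms. The fit was tested on simulated data. Alternatives were background correction, normalisation, offset, detection filter, variance model, array weights, mouse number as a block and each mouse left out. The background sets as a block and levels relative to endothelial markers were chosen after seeing the data.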

Additional observations from a re-analysis of the deposited data

Results flagged for a closer look

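Among 22 groups of 4 mice (11 tested probes in each genotype), 2 held 1 mouse far from the other mice of its group, the gap over the group's range being above Dixon's critical value at the 95% level. For *Notch3* (ILMN_2697380), Cd151+/+ mouse 3 read 7.85, below the other Cd151+/+ mice at 9.03 to 9.25. For *Dll1* (ILMN_2721188), Cd151-/- mouse 3 read 7.04, above the other Cd151-/- mice at 6.36 to 6.43. Chance gives about 1 such group in 20.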

How the results depend on the processing

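Over 18 alternatives, *Dll4* stayed lower in Cd151-/- glomeruli, from -1.64 to -0.85, with an unadjusted limma p of 0.00362 or smaller and an adjusted p between 0.0750 and 1.00. *Hes1* stayed between -0.83 and -0.58 and *Notch2* between -1.70 and -0.49, with an unadjusted p below 0.05 in 16 and 9 of the 18. In no alternative did a member or other pathway gene pass the adjusted threshold. The count of members lower at an unadjusted p, 3 as reported, was 2 to 4 in the alternatives that kept all mice and 1 to 3 when a mouse was left out, with 1 (*Dll4*) without Cd151+/+ mouse 2. The count of other pathway genes lower at that threshold, 3 as reported, was 17 with array weights (and 5 higher, against 0), 7 with the background set as a block and 2 to 7 when a mouse was left out, reaching 5 without Cd151+/+ mouse 4 and 7 without Cd151-/- mouse 3. With array weights *Jag2* was at -1.04 and the dimmer *Notch4* probe at -1.45, both lower at an unadjusted p below 0.05. The cause was not tested.

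Leaving out single mice turned the sign of *Notch1* (-0.080 to 0.44), *Notch3* (-0.37 to 0.14), *Jag2* (-0.58 to 0.11), *Dll1* (-0.053 to 0.24) and *Psenen* (-0.028 to 0.32). None of the other 14 member or pathway differences followed turned sign, and no setting with all mice turned one.

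Same-numbered mice did not deviate together (correlations of their deviations from the group means of -0.58, -0.40, -0.53 and -0.01). Same-numbered mice always lay in opposite background sets, so these correlations cannot show whether the numbers pair the mice. With the mouse number as a replicate block, 2 members (*Dll4* and *Hes1*) were lower at an unadjusted p and 0 passed after adjustment. Over all probes the block left 205 higher and 215 lower at an unadjusted p, where the fit without it had 253 and 390. The counts were 2336 and 2480 with array weights, 780 and 910 with the background set as a block, 139 and 250 with 75th percentile scaling, 431 and 663 without a detection filter, and 122 to 628 and 195 to 763 with a mouse left out.

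Signal over background limits several genes. *Jag1* and *Rbpj* were detected on no array, the dimmer *Notch2* probe on 1 and *Notch1* on 4. The signal was 1.17 to 1.89 times background for the brighter *Notch2* probe, 1.29 to 1.97 times for *Dll1*, and 1.30 to 2.35 times for *Dll4* in Cd151-/- mice against 2.35 to 3.13 times in Cd151+/+ mice.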
